A study of Mus musculus with 25 samples.

Results

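*Trp53*, which encodes p53, and 9 of its target genes were followed across 25 bulk 3′ RNA-seq libraries of E14 mouse embryonic stem (ES) cells. The 10 genes were chosen by name (*Trp53*, *Cdkn1a*, *Mdm2*, *Ccng1*, *Phlda3*, *Bax*, *Bbc3*, *Zmat3*, *Trp53inp1* and *Aen*), and all 10 were found by gene ID among the 48440 genes of the count table. The question was whether p53 and its targets change with inhibition of GSK3β or with editing and cloning. Unedited wild-type E14 cells were kept for 48 h with 0, 2.5, 5, 7.5 or 10 µM CHIR99021, a GSK3β inhibitor that stabilizes β-catenin, with 2 libraries per dose. The other 15 libraries came from 15 clones without CHIR99021 (0 µM), each carrying 1 of 11 missense mutations in *Ctnnb1*, the β-catenin gene. The genotypes were S37A, S37C, S37F and S37Y at codon 37, T41A, T41I, T41N and T41S at codon 41, and S45C, S45F and S45P at codon 45. S37F, T41A, T41I and S45F had 2 clones and the other mutations 1. All mutations were heterozygous, every line was a clone grown from a single colony after homology-directed repair, and the unedited cells had not been through targeting and cloning. Editing, cloning and the mutation itself therefore cannot be told apart in the comparison of clones with unedited cells. All cells were grown in serum.

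p53 is a transcription factor that is activated by DNA damage and other stress, mainly through stabilization of the protein, so that its own transcript need not follow its activity. Among its targets, *Cdkn1a* encodes p21, an inhibitor of cyclin-dependent kinases, *Mdm2* the ubiquitin ligase that degrades p53, and *Ccng1* cyclin G1, which acts with protein phosphatase 2A on Mdm2. *Bax* and *Bbc3* (PUMA) encode proapoptotic BCL2 family proteins, *Phlda3* an inhibitor of Akt, *Zmat3* an RNA-binding protein, *Trp53inp1* a p53-inducible nuclear protein and *Aen* an apoptosis-enhancing nuclease. Mouse ES cells proliferate fast and have a short G1 phase.

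The promoter sequences of the genes are shown first because p53 binds DNA at pairs of a 10-base half-site, and the genes differ in how closely their promoters match it. RefSeq windows from 250 bases before to 50 bases after each transcription start (GRCm38.p6) were found for 8 of the 10 genes. *Zmat3* and *Trp53inp1* had no window. Half-sites that match the p53 consensus exactly are in capitals below, except that the capitals in *Bbc3* and in the first half-site of *Aen* mark the best pair, which has 3 mismatches in total.
Cdkn1a, plus strand, chr17:29090886-29090957: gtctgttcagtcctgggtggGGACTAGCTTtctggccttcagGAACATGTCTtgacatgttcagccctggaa
Ccng1, minus strand, chr11:40755442-40755491: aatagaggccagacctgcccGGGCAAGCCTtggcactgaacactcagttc
Bax, minus strand, chr7:45467070-45467119: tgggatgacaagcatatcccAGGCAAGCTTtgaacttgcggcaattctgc
Mdm2, minus strand, chr10:117710915-117710964: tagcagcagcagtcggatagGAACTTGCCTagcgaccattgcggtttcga
Trp53, plus strand, chr11:69580264-69580313: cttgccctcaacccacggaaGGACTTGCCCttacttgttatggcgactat
Aen, plus strand, chr7:78895919-78895946: AGACAGGTAGccgaagccGGGCTTGTCC
Bbc3, plus strand, chr7:16309486-16309505: CTGCAAGCCCCGACTTGTCC
Bbc3, plus strand, chr7:16310156-16310177: GAGCGTGGCCccGGGCTCGCTC

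The 8 genes had 12 windows, and 7 of these held an exact half-site, whereas 8.36% of all 32851 promoter windows held one. By gene, 6 of the 8 had one, all but *Bbc3* and *Phlda3*. A pair without mismatch, with at most 13 bases between the half-sites, was found in the *Cdkn1a* window alone among these genes and in 0.0731% of all windows. The best pair had 1 mismatch in *Ccng1* (0.627% of windows had at most 1) and 2 in *Bax* (4.09% had at most 2). Pairs with at most 3 mismatches, as in *Bbc3*, *Aen* and *Trp53*, were common (15.6% of windows). The half-site is its own reverse complement in form, so that both strands were covered. CTTTGAT, the core of the TCF motif through which β-catenin acts, was in none of the 8 genes' windows on either strand and in 3.73% of all windows. These matches are descriptions of the windows only.

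Libraries held between 306157 and 2083398 deduplicated counts, and a gene with no count could still reach 1.44 to 9.80 CPM (counts scaled to 1e+06 per library) by the limit of 3 counts. The shallowest was replicate 1 at 10 µM. Counts of mitochondrial genes made up 0.485 to 1.46% of the unedited libraries and 1.53 to 2.52% of the clones, without overlap. All 10 ES cell markers were counted in every library, although *Pou5f1* averaged only 16.3 CPM in unedited cells. *Ctnnb1* was at 362 to 542 CPM in unedited cells and at 433 to 528 CPM in the clones, and neither the dose (adjusted p = 0.400) nor the clones (adjusted p = 0.484) changed it by the quasi-likelihood F-test of edgeR, which gives every adjusted p below, with Benjamini-Hochberg adjustment over all genes tested. *Axin2*, a direct β-catenin target, was at 15.8 and 13.8 CPM without CHIR99021, at 98.0 and 134 CPM at 10 µM, and at 22.6 to 87.4 CPM in the clones. The labels name a separate clone for each edited library, but nothing in them ties the 2 replicates of a dose to separate cultures. The p-values therefore measure the spread between these libraries.

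With rising CHIR99021, *Cdkn1a* and *Phlda3* rose and *Trp53* and *Bbc3* fell, while the other 6 genes did not pass the test for a linear trend. This makes 4 of 10 genes called, where 12.5% of all 10033 tested genes were called (5.89% higher, 6.63% lower). Their median fitted change over 10 µM was 0.28 on the log2 scale against 0.01 over all tested genes.

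*Cdkn1a* was at 291 and 298 CPM in the untreated replicates, at 601 and 603 CPM at 2.5 µM, at 799 and 745 CPM at 5 µM, at 865 and 875 CPM at 7.5 µM and at 856 and 832 CPM at 10 µM. All 8 treated libraries were above both untreated ones, a separation that 7.48% of all tested genes showed. Both replicates at 2.5 µM were below all 6 at higher doses. The fitted rise was 1.40 ± 0.20 (log2 fold change per 10 µM ± SE, adjusted p = 8.05e-06), or 2.64-fold. Most of it came with the first step: 2.5 µM against 0 µM gave 1.06 ± 0.13 (adjusted p = 3.83e-07), 5 against 2.5 µM gave 0.35 ± 0.12 (adjusted p = 0.437) and 10 against 2.5 µM gave 0.48 ± 0.13 (adjusted p = 0.0454). Over all genes, 2.32%, 0.112% and 1.09% were called in these 3 contrasts. These single steps were added after the trend had been seen.

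*Phlda3* was at 93.5 and 85.1 CPM without the inhibitor and at 148 and 162 CPM at 2.5 µM. It was at 189 and 148 CPM at 5 µM, at 171 and 156 CPM at 7.5 µM and at 180 and 200 CPM at 10 µM. No treated library reached down to the untreated pair, and 7.48% of all tested genes showed such a separation upward. The trend was 0.88 ± 0.17 per 10 µM (adjusted p = 0.000674) and the first step 0.82 ± 0.16 (adjusted p = 0.00107). From 2.5 to 10 µM the change was 0.30 ± 0.16 (adjusted p = 0.543; 95% interval -0.01 to 0.62).

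*Trp53* itself moved the other way, and late. It was at 259 and 231 CPM at 0 µM, at 194 and 234 CPM at 2.5 µM, at 193 and 217 CPM at 5 µM, at 175 and 233 CPM at 7.5 µM and at 154 and 130 CPM at 10 µM. Only the 10 µM pair lay below every library of the lower doses, and the share of all genes with this pattern was not computed. The *Trp53* transcript fell by 0.62 ± 0.15 on the log2 scale per 10 µM (adjusted p = 0.0050). The first step was small (-0.16 ± 0.14, adjusted p = 0.692), and 10 against 2.5 µM gave -0.68 ± 0.17 (adjusted p = 0.0260). Without replicate 2 at 10 µM the trend was -0.42 and was no longer called (adjusted p = 0.0835).

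*Bbc3* was at 98.9 and 107 CPM at 0 µM and at 99.2 and 93.0 CPM at 2.5 µM. It was at 74.0 and 61.9 CPM at 5 µM, at 49.3 and 49.6 CPM at 7.5 µM and at 42.5 and 61.8 CPM at 10 µM. Libraries at 5 µM or above did not overlap those at 2.5 µM or below, and the share of all genes with this separation was not computed. The fall was 1.13 ± 0.19 per 10 µM (adjusted p = 7.37e-05), and 2.5 µM against 0 µM differed by -0.08 ± 0.17 (adjusted p = 0.911).

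*Mdm2* and *Ccng1* rose at the lowest dose and showed no linear trend. *Mdm2* was at 117 and 106 CPM at 0 µM, 193 and 171 CPM at 2.5 µM, 142 and 185 CPM at 5 µM, 181 and 156 CPM at 7.5 µM and 118 and 154 CPM at 10 µM. *Ccng1* was at 172 and 193 CPM at 0 µM, 260 and 271 CPM at 2.5 µM, 224 and 281 CPM at 5 µM, 279 and 261 CPM at 7.5 µM and 229 and 227 CPM at 10 µM. Every treated library was above both untreated ones for both genes, for *Mdm2* in its lowest one by less than 1 CPM. Of all tested genes, 7.48% showed such a separation upward. At 2.5 µM against 0 µM, *Mdm2* was higher by 0.70 ± 0.15 (adjusted p = 0.00525) and *Ccng1* by 0.58 ± 0.14 (adjusted p = 0.0113). With *Cdkn1a* and *Phlda3* this made 4 of 10 genes called at the first step, all higher, where 2.32% of all genes were called (1.28% higher). At 10 µM against 0 µM, where 10.1% of all genes were called, *Mdm2* (0.36 ± 0.17, adjusted p = 0.181) and *Ccng1* (0.35 ± 0.15, adjusted p = 0.133) were not called.

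*Bax*, *Zmat3*, *Trp53inp1* and *Aen* were not called by the trend or at any step. *Bax* stayed between 277 and 343 CPM in the 10 unedited libraries, with a trend of 0.10 and a 95% interval of -0.15 to 0.35. *Zmat3* ranged from 81.7 to 141 CPM (trend 0.12, interval -0.19 to 0.43) and *Trp53inp1* from 64.7 to 120 CPM (trend 0.30, interval -0.10 to 0.70). At 2.5 µM against 0 µM, *Trp53inp1* differed by 0.55 ± 0.19 (interval 0.18 to 0.92, adjusted p = 0.117). *Aen* had 1 to 28 counts a library, or 3.27 to 18.1 CPM, so that its interval of -0.36 to 1.29 leaves a wide range of changes not detectable at this depth.

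**Figure D1:**
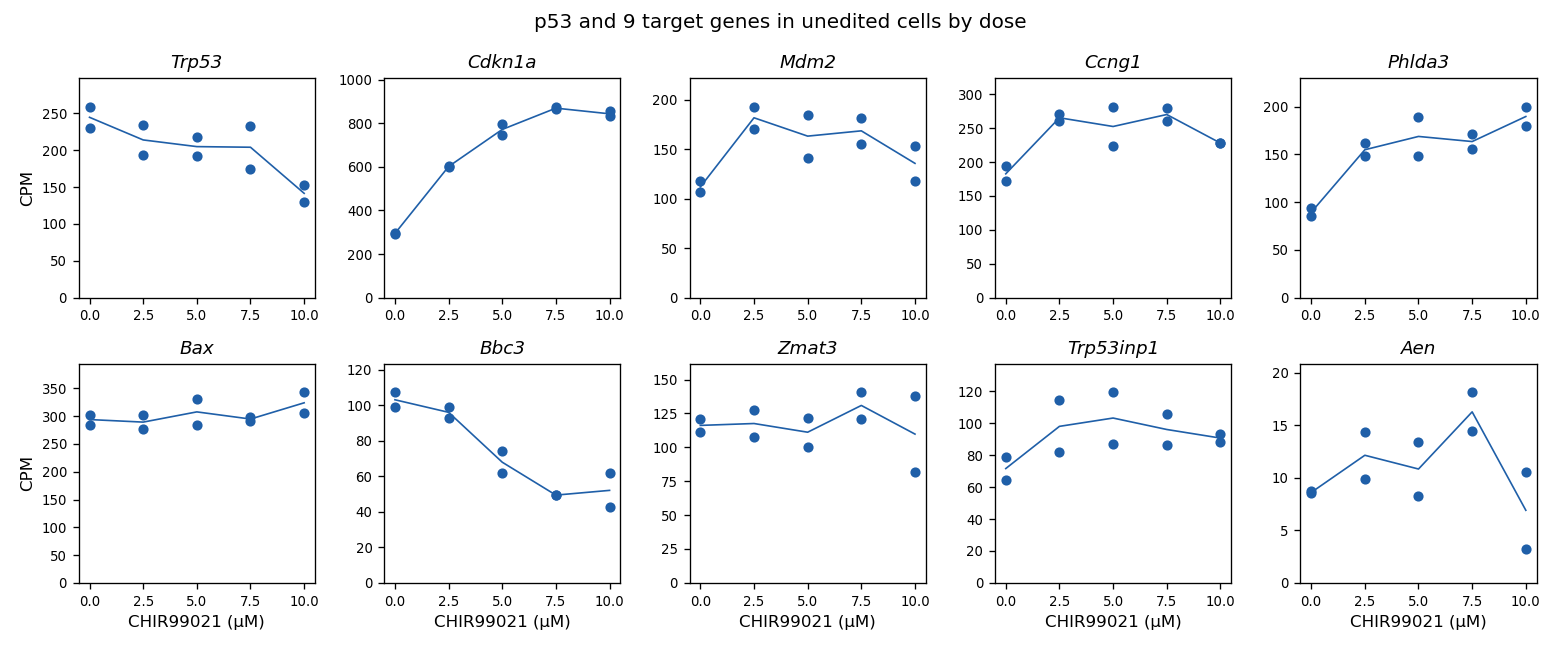
CPM (vertical axes, from 0) of the 10 genes in unedited cells against the CHIR99021 dose in µM. Points are single libraries, 2 per dose, and lines join their means; *Cdkn1a* leaves the untreated level of 291 and 298 CPM at 2.5 µM, while *Trp53* is lowest at 10 µM with 154 and 130 CPM.

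Other features of the cells moved with the dose. The summed CPM of the 10 ES cell markers fell from 5361 and 5435 at 0 µM to 3998 and 3704 at 10 µM, with 7 markers lower and *Klf4* higher in the trend. The summed CPM of 12 markers of other cell types went from 105 and 111 to 219 and 172, and 2 of the 5 tested, the mesendoderm genes *T* and *Mixl1*, rose. In bulk samples fewer cells of a type and less RNA per cell cannot be told apart, and the part of these markers in the p53 target values was not tested. The 4 unedited libraries with a mitochondrial share under 0.8%, which were also the shallowest, were spread over 4 doses. With a term for them the same number of genes, 4 of 10, was called. Over all genes, 1519 were called with this term and 1256 without it.

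In the mutant clones *Trp53* was higher and *Bbc3* lower than in the 2 untreated libraries, and *Cdkn1a* was not called over all clones. With 2 of 10 genes called, the share was close to that of all 11018 genes tested (19.7% called; 9.94% higher, 9.74% lower). The same 2 untreated libraries are the base of the dose comparison, so that the values below are set beside those above without being independent of them.

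*Trp53* was at 259 and 231 CPM in untreated cells, and in the clones the lowest level was 261, the median 378 and the highest 517 CPM. All 15 clones were above all 10 unedited libraries, a separation that 4.17% of all genes showed upward. The fitted difference was 0.62 ± 0.22 (adjusted p = 0.0498), just inside the threshold. It was called in 9 of 26 alternative settings, and its adjusted p ranged from 7.20e-07 with all 10 unedited libraries as the comparison group to 0.341 without replicate 2 at 0 µM. The direction was the same in each.

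*Bbc3* was at 98.9 and 107 CPM in untreated cells and at 24.0 to 74.7 CPM in the clones, with a median of 40.6. All 15 clones were below both untreated libraries, as 10.2% of all genes were, and 8 were below all 10 unedited libraries. The share of genes with 8 or more clones below them was not computed. Every clone was below them in 2.86% of all genes, a stricter separation that *Bbc3* did not show. The difference of *Bbc3* between clones and untreated cells was -1.21 ± 0.33 (adjusted p = 0.0150). It was called in 24 of 26 alternatives (adjusted p from 0.000237 to 0.137), and the exceptions were the fits without replicate 1 (adjusted p = 0.136) or replicate 2 (adjusted p = 0.137) at 0 µM.

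*Phlda3* and *Aen* were above both untreated libraries in 15 of 15 clones, as 10.6% of all genes were, but were not called. *Phlda3* was at 93.9 to 206 CPM in the clones (median 129), a difference of 0.56 ± 0.21 (adjusted p = 0.0649, and 0.0334 to 0.355 over the alternatives). *Aen* was at 8.70 and 8.51 CPM in untreated cells and at 10.1 to 38.7 CPM in the clones, a difference of 1.28 ± 0.46 (adjusted p = 0.0557, and 0.00256 to 0.318 over the alternatives).

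The remaining targets lay on both sides of the untreated level. *Cdkn1a* was above both untreated libraries in 11 clones and below both in 4, with a group difference of 0.20 ± 0.28 (adjusted p = 0.667). *Mdm2* was above in 5 and below in 9 clones (0.11 ± 0.35, adjusted p = 0.859) and *Zmat3* above in 7 and below in 8 (0.04 ± 0.22, adjusted p = 0.916). *Ccng1* was above in 14 clones (0.62 ± 0.38, adjusted p = 0.268), *Trp53inp1* in 13 (0.41 ± 0.23, adjusted p = 0.225) and *Bax* in 12 (0.16 ± 0.13, adjusted p = 0.441). The 95% intervals were widest for *Mdm2* (-0.62 to 0.85) and *Ccng1* (-0.18 to 1.41) among these 6 genes. Against all 10 unedited libraries, 8 of which had CHIR99021, *Cdkn1a* was instead lower in the clones, by -1.04 (adjusted p = 1.55e-05).

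**Figure D2:**
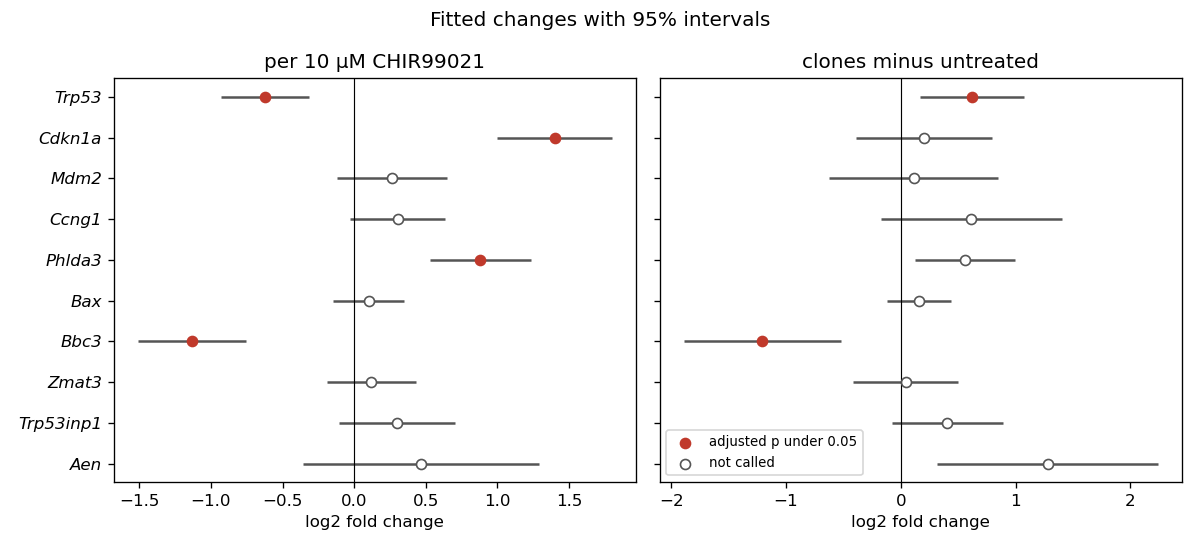
Fitted log2 fold change (horizontal axes) of the 10 genes per 10 µM CHIR99021 in unedited cells (left) and in clones minus untreated cells (right), with 95% intervals that are not adjusted for the number of genes. Filled points have an adjusted p under 0.05; *Bbc3* is to the left of 0 in both panels, and *Trp53* is at -0.62 with the dose and at 0.62 in the clones.

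The median change of the genes on a member's own chromosome was at most 0.08 in this comparison, on chromosome 11 with *Trp53* and *Ccng1*. In S45C clone D3 the median for chromosome 11 was 0.25 above untreated cells (log2, 620 genes). Relative to its chromosome, *Trp53* was higher in the clones by 0.54 (adjusted p = 0.0822). The clones' mitochondrial shares were all above those of the unedited cells, and the part of this in the values was not tested. The summed ES cell markers spanned 2294 to 6091 CPM in the clones, around the 5361 and 5435 CPM of untreated cells.

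Clones of different codons differed in *Cdkn1a*, the one gene of the group that separated codon 45 from the others. The test over the 3 codons called *Cdkn1a* (F = 35.3, adjusted p = 0.000986) and *Trp53* (F = 12.5, adjusted p = 0.0422), 2 of 10 genes, where 1.13% of all 10145 genes were called.

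*Cdkn1a* averaged 419 ± 34.5 CPM (SD, n = 5) in codon 37 clones, 361 ± 54.8 CPM (n = 6) in codon 41 clones and 211 ± 14.02 CPM (n = 4) in codon 45 clones. The clones of a codon carry different mutations, so the SD covers mutations as well as clones. In the paper, T41A and T41I were the strongest activators at codon 41, T41N was weaker and T41S was well tolerated. The codon 37 clones were S37A at 450 CPM, S37C at 431, S37F at 451 and 375, and S37Y at 391 CPM. The codon 41 clones were T41A at 342 and 351 CPM, T41I at 336 and 306, T41N at 363 and T41S at 465 CPM. The codon 45 clones were S45C at 201 CPM, S45F at 221 and 197, and S45P at 225 CPM. All 4 clones of codon 45 were below the 11 other clones and below both untreated libraries. Of all genes, 4.65% had every codon 37 clone above every codon 45 clone. The share that also separated codon 45 from codon 41 and untreated cells was not computed. Codon 45 was lower than codon 37 by -1.02 ± 0.12 (adjusted p = 0.000267; 3.14% of all genes called) and lower than codon 41 by -0.81 ± 0.12 (adjusted p = 0.0131; 0.0197% called). Codons 41 and 37 differed by -0.21 ± 0.11 (adjusted p = 0.419; 95% interval -0.43 to 0.01). The call over the 3 codons held in 21 of 21 alternatives, with adjusted p from 2.67e-05 to 0.0225.

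Set against untreated cells, codon 37 was higher in *Cdkn1a* by 0.50 ± 0.15 (adjusted p = 0.0269; 16.3% of all genes called), codon 41 by 0.29 ± 0.14 without passing the test (adjusted p = 0.150; 21.8% called), and codon 45 was lower by -0.52 ± 0.15 (adjusted p = 0.0218; 16.1% called). The order of *Cdkn1a* levels was thus codon 45, untreated, codon 41, codon 37 and then the treated cells; of the neighbours, codons 41 and 37 overlapped, and codon 41 and untreated cells did not pass the test although all 6 codon 41 clones were above both untreated libraries. All 8 treated libraries were above every clone. The shares of all genes with these separations were not computed. *Axin2* had averages of 77.4 ± 11.5, 45.7 ± 6.60 and 27.2 ± 5.31 CPM (SD) in codons 37, 41 and 45, against 15.8 and 13.8 CPM without mutation or inhibitor.

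*Trp53* averaged 296 ± 24.5 CPM (SD, n = 5) in codon 37, 435 ± 62.7 CPM (n = 6) in codon 41 and 407 ± 56.0 CPM (n = 4) in codon 45. The codon 37 clones ranged from 261 to 328 CPM, and the others from 350 to 517 CPM without overlap. How many of all genes separated in this way was not computed. Against untreated cells, codon 41 was higher by 0.82 ± 0.16 (adjusted p = 0.00139), codon 45 by 0.69 ± 0.16 (adjusted p = 0.00844) and codon 37 by 0.26 ± 0.16 (adjusted p = 0.261). The pairwise differences of codon 41 (0.56 ± 0.11, adjusted p = 0.0979) and codon 45 (0.43 ± 0.13, adjusted p = 0.0646) from codon 37 were not called. The call over the 3 codons held in 8 of 21 alternatives (adjusted p from 0.0169 to 0.149) and was lost without any 1 of 11 clones, each of the 5 at codon 37 except S37F replicate 2 among them. Codons 41 and 45 differed by -0.13 ± 0.12 (adjusted p = 0.778).

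The other 8 genes were not called between codons. *Bbc3* had a median of 26.8 CPM in codon 37, 42.6 in codon 41 and 66.4 in codon 45, and was below untreated cells by -1.53 ± 0.34 in codon 37 (adjusted p = 0.00592), by -1.29 ± 0.33 in codon 41 (adjusted p = 0.00969) and by -0.76 ± 0.36 in codon 45 (adjusted p = 0.155). The difference of 0.77 between codons 45 and 37 did not pass the test (adjusted p = 0.183). *Aen* was higher in codon 41 than in untreated cells by 1.43 ± 0.49 (adjusted p = 0.0415). Against untreated cells this made 2 of 10 genes called for codon 37, 3 for codon 41 and 2 for codon 45, near the background shares given for *Cdkn1a*.

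**Figure D3:**
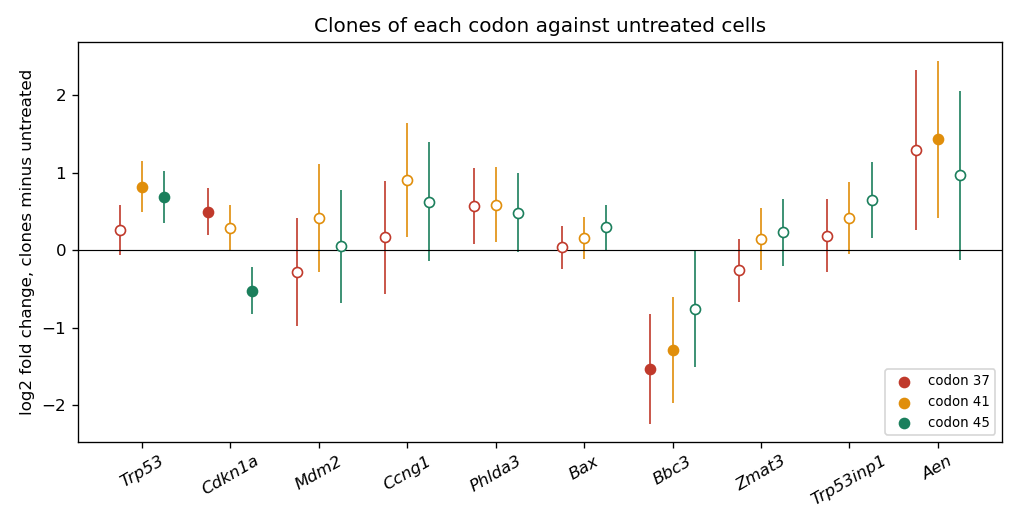
Log2 fold change (vertical axis) of the 10 genes in the clones of codons 37, 41 and 45 minus the 2 untreated libraries, with unadjusted 95% intervals. Filled points have an adjusted p under 0.05; *Cdkn1a* is at 0.50, 0.29 and -0.52 in the 3 codons and *Trp53* at 0.26, 0.82 and 0.69.

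Markers of other cell types also differed between codons. Their summed CPM was 114 to 262 in codon 37 and 57.8 to 149 in codon 45, and of 8 tested markers 5 were lower in codon 45 than in codon 37 (*T*, *Eomes*, *Gata4*, *Gata6* and *Sox17*) and 2 higher (*Pax6* and *Neurod1*). All 12 were counted in some library of each codon, 11 of them in every codon 37 library and 7 in every codon 45 library. Their part in the *Cdkn1a* values was not tested.

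Between single mutations, 6 of 10 genes were called (*Trp53*, *Cdkn1a*, *Mdm2*, *Ccng1*, *Bbc3* and *Zmat3*), where 17.1% of all 11450 genes were called. The spread in this test comes from the 4 mutations with 2 clones alone, and on simulated counts the same test made more false calls than its threshold allows. *Ccng1* (adjusted p = 0.000600), *Cdkn1a* (adjusted p = 0.000318) and *Trp53* (adjusted p = 0.0113) were called in 18 of 18 alternatives, *Mdm2* (adjusted p = 0.00411) in 17, all but the fit without T41S (adjusted p = 0.0740). *Bbc3* (adjusted p = 0.0200) was called in 14 of 18 alternatives (largest adjusted p 0.152) and was lost with thinned counts and without S45F replicate 1 or either T41A clone. *Zmat3* (adjusted p = 0.0261) was called in 12 of 18 (largest adjusted p 0.121) and was lost with thinned counts and without S37F replicate 1, either T41A clone, T41N or T41S.

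For *Mdm2* and *Ccng1* the spread between clones came largely from T41N clone D3 and T41S clone H8, which were picked out after their values were seen and are therefore described without a test. *Mdm2* was at 252 CPM in T41N (Wilson 95% interval 212 to 300) and at 240 CPM in T41S (218 to 264), and at 73.6 to 146 CPM in the other 13 clones. *Ccng1* was at 547 CPM in T41N (485 to 616) and at 574 CPM in T41S (540 to 611), and at 154 to 379 CPM in the other 13. Both clones thus stood above all others and above all 10 unedited libraries in both genes. The share of all genes with this separation was not computed. T41N was also the highest clone for *Zmat3* (198 CPM) and *Trp53* (517 CPM), and T41S for *Phlda3* (206 CPM) and *Cdkn1a* (465 CPM). *Bax* (335 and 316 CPM), *Bbc3* (62.5 and 55.4 CPM), *Trp53inp1* (119 CPM in T41N) and *Aen* (10.1 and 15.8 CPM) were inside the range of the other clones in both, except that *Aen* in T41N was the lowest of all.

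T41S also had the lowest summed ES cell markers of all libraries (2294 CPM) and 254 CPM of other markers, and T41N had 3565 and 103 CPM. S45C, with ES cell markers as low as T41N (3536 CPM), had the highest *Mdm2* (146 CPM) and *Ccng1* (379 CPM) of the other 13 clones. T41N was the shallowest clone (495616 counts), T41S one of the deeper ones (1770304 counts). The part of these features in the values was not tested. Without both clones, 4 of 10 genes differed between clones and untreated cells, where 2796 of all genes were called, against 2168 with them. *Phlda3* (0.47, adjusted p = 0.0359) and *Aen* (1.34, adjusted p = 0.0313) were called beside *Trp53* and *Bbc3*. Between codons, *Zmat3* was then called (adjusted p = 0.0285).

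Clones of the same mutation showed how far a level can differ without a difference in genotype. The SD of log2 (CPM + 1) within mutations was 0.11 for *Trp53* and 0.12 for *Cdkn1a*, against 0.30 and 0.43 over all clones. For *Phlda3* (0.25 within, 0.27 over all), *Trp53inp1* (0.33 in both) and *Aen* (0.56 in both) clones of a mutation were as far apart as clones in general.

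**Figure D4:**
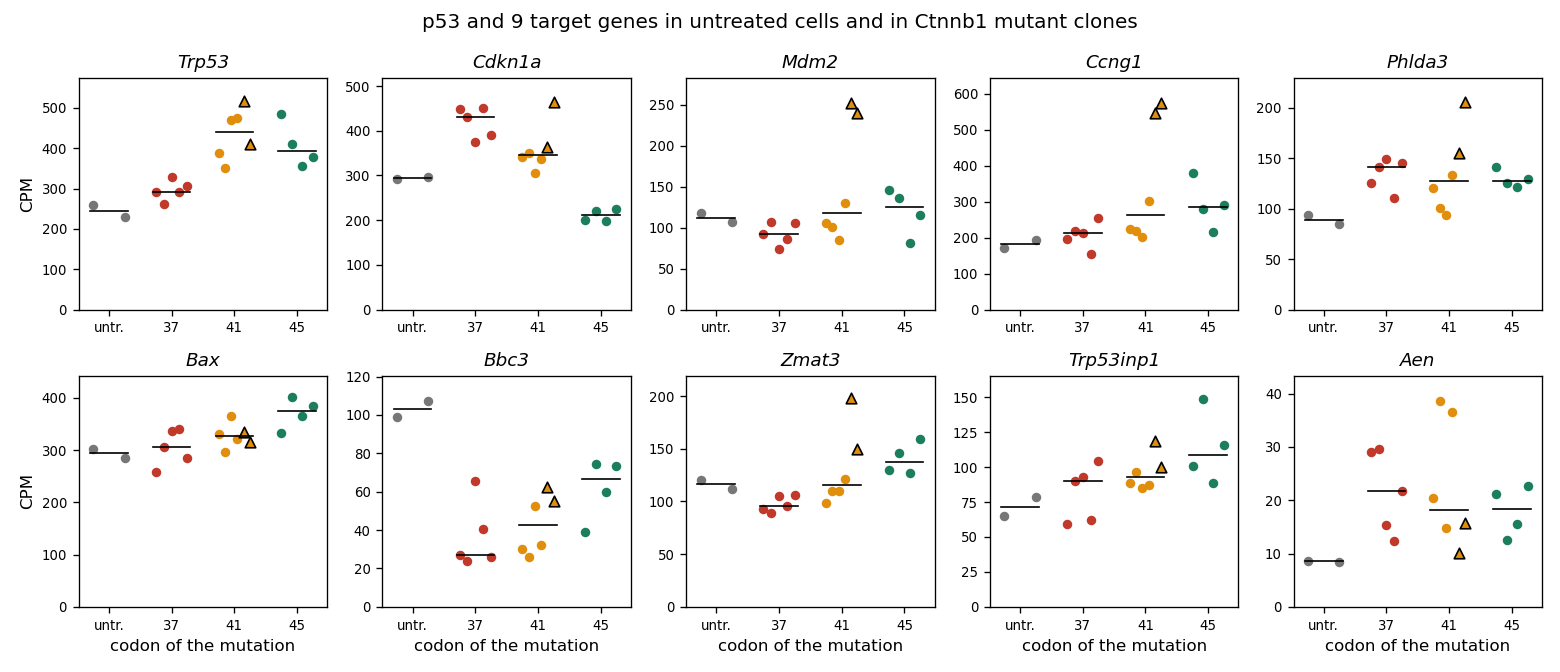
CPM (vertical axes, from 0) of the 10 genes in the 2 untreated libraries (grey) and in the clones of codons 37 (5), 41 (6) and 45 (4), with each point a library and lines at the medians. Triangles are T41N and T41S, which lie at 252 and 240 CPM of *Mdm2* above the other clones; the 4 codon 45 clones lie at 197 to 225 CPM of *Cdkn1a* below all others.

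Of 40 further targets, 33 were tested with the dose, and 1 rose and 3 fell (12.1% called, as over all genes; median change 0.02). *Perp*, a desmosomal protein gene, rose by 1.05 ± 0.20 per 10 µM (adjusted p = 0.000432). The stress cytokine gene *Gdf15* (-1.55 ± 0.46, adjusted p = 0.0213), *Plk3*, a polo-like kinase gene (-1.43 ± 0.38, adjusted p = 0.0107), and *Pml*, which organizes nuclear bodies (-0.77 ± 0.14, adjusted p = 0.000254), fell.

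Single dose steps gave a further view of the same list, added after the trend had been seen. At 2.5 µM against 0 µM, 24 of 34 tested targets had a positive change and the median was 0.24, against 0.00150 over all genes. Called were 2 of the 34 (5.88%, where 2.32% of all genes were called), both higher: *Plk2*, a polo-like kinase gene (1.03 ± 0.21, adjusted p = 0.00192), and *Perp* (0.92 ± 0.19, adjusted p = 0.00286). The next contrast uses the same 2 libraries at 2.5 µM with opposite sign, so that it is not independent of the first. From 2.5 to 10 µM, 25 of 34 had a negative change and the median was -0.23, against -0.00592 over all genes. In this contrast edgeR called 0 of them, where 1.09% of all genes were called. An unadjusted p under 0.05 was found for 7 of the 34 and for 1026 of all 10674 genes.

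In the clones 1 of 33 was higher and 3 lower than in untreated cells (12.1% called, where 19.7% of all genes were called; median -0.12). Between mutations 12 of 33 were called (36.4%, where 17.1% of all genes were called), in the test that made too many false calls on simulated counts. *Ddit4*, an inhibitor of mTORC1 that also responds to hypoxia and energy stress, was lower by -2.50 ± 0.37 (adjusted p = 0.000188). The DNA repair gene *Xpc* (-0.80 ± 0.22, adjusted p = 0.0137) and the spindle gene *Psrc1* (-0.48 ± 0.17, adjusted p = 0.0496) were also lower, and *Gtse1*, which restrains p53 in G2, was higher (0.60 ± 0.18, adjusted p = 0.0238). Between codons edgeR called 0 of the 33, and 5 had an unadjusted p under 0.05, as did 1709 of all 10145 genes.

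Of 22 regulators and partners of p53, 1 of 18 tested rose with the dose, *Ppp1r13l*, which encodes the p53 inhibitor iASPP (0.69 ± 0.20, adjusted p = 0.0211), and 1 fell, *Trp53bp1*, a DNA repair factor gene (-0.63 ± 0.21, adjusted p = 0.0421). These 2 of 18 are 11.1%, near the 12.5% of all genes. In the clones 3 of 19 were higher and 1 lower. The higher ones were the deacetylase gene *Sirt1* (1.37 ± 0.29, adjusted p = 0.00280) and the acetyltransferase genes *Ep300* (0.97 ± 0.28, adjusted p = 0.0211) and *Crebbp* (0.84 ± 0.24, adjusted p = 0.0197), and the lower one was *Mdm4*, the partner of Mdm2 in restraining p53 (-0.91 ± 0.27, adjusted p = 0.0231). The share of 21.1% was near that of all genes.

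Of 15 other BCL2 family and apoptosis genes, 6 of 12 tested were called with the dose (over all genes 12.5% were called), among them the 5 named here. The proapoptotic *Bak1* (1.01 ± 0.30, adjusted p = 0.0221) and *Bid* (0.80 ± 0.19, adjusted p = 0.00484) rose. The BH3-only genes *Bmf* (-1.14 ± 0.37, adjusted p = 0.0404) and *Bcl2l11* (-0.94 ± 0.28, adjusted p = 0.0226) and the antiapoptotic *Mcl1* (-0.39 ± 0.12, adjusted p = 0.0250) fell. In the clones 5 of 15 were called (33.3%, where 19.7% of all genes were called), among them 4 named here. *Cycs*, the cytochrome c gene (1.33 ± 0.29, adjusted p = 0.00392), the antiapoptotic *Bcl2l1* (1.20 ± 0.32, adjusted p = 0.0132) and *Bid* (1.095 ± 0.31, adjusted p = 0.0175) were higher, and *Bmf* (-1.35 ± 0.47, adjusted p = 0.0468) was lower.

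Over all 25 libraries, the 5 genes most like *Cdkn1a* among the 7087 genes that averaged 20 CPM or more were *Fn1* (Pearson r = 0.94 of log2 (CPM + 1)), *Ctsb*, *Gnai2*, *Cpe* and *Spag9* (r = 0.90). Those most like *Trp53* were *Elavl1* (r = 0.93), *Psme3*, *Acer2*, *Cct6a* and *Cxxc1* (r = 0.92). These values describe 25 points that share treatment, clone origin and depth, and carry no test.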

How the data were processed

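Bulk RNA of unedited cells (10 libraries) and clones (15 libraries) was sequenced by mcSCRB-seq, a 3′ method that tags molecules before amplification. The deposited values were raw counts per gene without normalization. To make them, the authors trimmed reads (Cutadapt), took out the tags (UMI-tools) and ribosomal reads (SortMeRNA), aligned to mm10 (RNA STAR), removed duplicates (Picard) and counted (featureCounts). The submitters' processing notes name FastQC 0.73, bedtools 2.30.0 and featureCounts 2.0.1. The annotation release and the strand setting are not given in the sources used here, so reads of *Cdkn1a* and of an unnamed transcript opposite to it may not be told apart. All 25 columns were used, and 48058 of 48440 gene IDs had a symbol.

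CPM used total counts. Depth was 306157 to 2083398 counts, and Wilson intervals and the limit of 3 counts (95% confidence) cover counting error only. Models were fitted over all genes with the quasi-likelihood F-test of edgeR 4.0.16 (TMM factors, genes kept by filterByExpr at a count minimum of 10) at a false discovery rate of 0.05. They took the dose in µM as a linear term (10 libraries), clones against untreated (17 libraries), and codon and mutation as factors (15 libraries each). Intervals use the fitted degrees of freedom. Alternatives were RLE factors, DESeq2 1.42.0, no filter, thinned counts, a replicate block, dose as a factor, a term or subset by mitochondrial share (set apart at 0.8%), other comparison groups, sums per mutation, chromosome medians and leaving out each library. Added after the data were seen were codon pairs, codons against untreated, single dose steps and leaving out T41N and T41S together. The fits were tested on simulated data. Replicate numbers did not pair the libraries: their deviations correlated by -0.21 to 0.17 between doses, over 0.1 in 3 of 10 pairs.

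The 10 genes and all lists were chosen with earlier results of these data known. Named beside them are up to 6 called genes per list and comparison by size of change, apart from 1 that is not reported here, *Ctnnb1* and *Axin2* as checks, and the 5 genes most like *Cdkn1a* and *Trp53*. Promoter sequences are from RefSeq (GRCm38.p6).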

Additional observations from a re-analysis of the deposited data

Results flagged for a closer look

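*Cdkn1a* in T41S clone H8 stood apart from the other 5 codon 41 clones, which carry other mutations. It was at 465 CPM against 306 to 363 CPM. Its gap to the nearest clone was 0.643 of the whole range, above Dixon's critical value for 6 samples. It was the 1 such value in 30 sets of 4 to 6 clones (10 genes in 3 codons), and chance alone gives about 1 in 20.

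*Cdkn1a* (adjusted p = 0.000986) and *Trp53* (adjusted p = 0.0422) differed between the clones of codons 37, 41 and 45 in edgeR's quasi-likelihood test of the difference itself. For *Cdkn1a* the clones of codon 37 and codon 45 lay on opposite sides of the untreated libraries.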

How the results depend on the processing

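With the dose, 4 genes were called in every alternative that kept all libraries, and 3 to 4 with 1 library left out (2 higher throughout, 1 to 2 lower). Of the other settings, thinned counts turned the sign of *Zmat3* (-0.045). Between clones and untreated cells, where 2 genes were called, the count was 1 with RLE factors, without a filter, with the replicate block and relative to chromosome medians (0 higher in each), 4 against all 10 unedited libraries (2 higher, 2 lower) and 4 without T41N and T41S (3 higher). DESeq2 and the fit of all 25 libraries with dose as a term called 2 higher. With 1 library left out it was 0 to 4 (0 to 3 higher, 0 to 1 lower). Calls over all genes also changed, from 2168 in the main fit to 5482 against all 10 unedited libraries. They were 3887 with dose as a term and 2796 without T41N and T41S. *Trp53* lost its call with thinned counts (adjusted p = 0.172; range over alternatives 7.20e-07 to 0.341), and the cause was not tested.

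The sign turned for *Cdkn1a* (-1.04), *Mdm2* (-0.38), *Phlda3* (-0.25), *Zmat3* (-0.027) and *Trp53inp1* (-0.011) against all 10 unedited libraries, of which 8 had CHIR99021. It also turned for *Cdkn1a* (-0.25) and *Mdm2* (-0.26) with dose as a term over 25 libraries, for *Mdm2* (-0.077) and *Zmat3* (-0.046) with thinned counts, for *Mdm2* (-0.043) with the replicate block, and for *Mdm2* (-0.12) and *Zmat3* (-0.053) without T41N and T41S. Leaving out 1 library gave *Mdm2* -0.011 to 0.18 and *Zmat3* -0.034 to 0.092. Of these only *Cdkn1a* at -1.04 was called.

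Between codons 1 gene was called with thinned counts and with counts summed per mutation, and 1 to 2 with 1 clone left out. Between mutations 4 to 6 were called with 1 clone left out. The calls over all genes with 1 clone left out are not given here for either comparison. The replicate block, whose numbers did not pair the libraries, left 4 genes with the dose and 2 between codons. For mutations no paired analysis was possible because most have 1 clone.

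Precision was limited most for *Aen* (1 to 53 counts a library), by the 2 untreated libraries in every comparison of clones, and by 1 clone for 7 of 11 mutations.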
